A study of Mus musculus with 6 samples.

Results

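The stretch described here is the gene-bearing part of mouse chromosome 4 that lies 227 to 400 kb upstream of the Wnt4 promoter (mm9, chr4:136432108-136604716). Its members were taken by position: all 479 listed DpnII fragment ends between these coordinates were taken, out of 369081 ends listed for the chromosome. Sequenced 4C libraries (circularised chromosome conformation capture) had counted how often each fragment end was ligated to a viewpoint fragment at the Wnt4 promoter, whose end was taken as position 136832108. There were 6 libraries, 3 from BC44 and 3 from HC11, both mouse mammary epithelial cell lines. Both lines were grown in RPMI1640 with L-glutamine, 10% FBS and 5 µg/ml insulin and were fixed with 2% formaldehyde for 10 min. HC11 was also given EGF at 10 ng/ml and no EGF is recorded for BC44, so line and EGF cannot be told apart. Each line stands for 1 cell culture model grown on plastic, and the labels do not say that the replicates came from separate cultures, so p-values measure the spread between these libraries, which may be technical. No RNA was measured in these libraries, so the epithelial identity of the lines was not checked against marker genes.

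The annotation (GENCODE M1) places 5 coding genes in the stretch, all transcribed from the minus strand, away from Wnt4. Zbtb40 (chr4:136535647-136604716), nearest to the viewpoint, encodes a BTB-domain zinc finger protein. Epha8 (chr4:136485334-136512731) encodes an Eph receptor tyrosine kinase that binds ephrin-A ligands and is best known from the nervous system. C1qa (chr4:136451832-136454718), C1qc (chr4:136445719-136448980) and C1qb (chr4:136436044-136442102) encode the A, C and B chains of complement C1q, the recognition subunit that starts the classical complement pathway and is made mainly by macrophages. Wnt4 itself encodes a secreted signalling protein that acts downstream of progesterone in the mammary epithelium, where it drives side-branching. In a 4C profile the read count falls with distance from the viewpoint, and DNA that comes near the viewpoint more often than its distance alone gives stands above that decay.

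The fragment ends with the most reads show what a 4C read from the stretch is made of. A read starts at the GATC of DpnII, here in capitals, and the ligated piece runs up to the first CATG, the site of the second enzyme NlaIII, also in capitals. The 4 ends with the highest mean reads among those seen in at least 5 of the 6 libraries were these, each written 5′ to 3′ from the listed end.

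Zbtb40 intron, chr4:136583920-136583980, minus strand: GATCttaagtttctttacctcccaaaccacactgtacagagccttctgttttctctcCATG
Zbtb40 intron, chr4:136597234-136597291, plus strand: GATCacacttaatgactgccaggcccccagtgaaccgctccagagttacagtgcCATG
Zbtb40 intron, chr4:136554608-136554653, minus strand: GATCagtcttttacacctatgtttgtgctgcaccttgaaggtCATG
C1qc promoter, chr4:136450192-136450257, minus strand: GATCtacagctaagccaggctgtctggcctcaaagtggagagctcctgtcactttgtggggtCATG

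The promoters of the stretch differ in sequence. Those of Epha8 and C1qc are shown because they had the lowest and one of the highest read levels among the promoters with a value. These levels came from listed ends within 2 kb of the gene start, not from the bases shown alone. The share of ends with a read gave another order, as described below. Each sequence is the 300 bases from 250 bases before to 50 after the start of the gene in mm9, on the minus strand, with CG dinucleotides in capitals. The Epha8 promoter had 56 CG dinucleotides and 84.3% G+C, and the C1qc promoter had 2 and 52.7%.

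Epha8 promoter, chr4:136512682-136512981: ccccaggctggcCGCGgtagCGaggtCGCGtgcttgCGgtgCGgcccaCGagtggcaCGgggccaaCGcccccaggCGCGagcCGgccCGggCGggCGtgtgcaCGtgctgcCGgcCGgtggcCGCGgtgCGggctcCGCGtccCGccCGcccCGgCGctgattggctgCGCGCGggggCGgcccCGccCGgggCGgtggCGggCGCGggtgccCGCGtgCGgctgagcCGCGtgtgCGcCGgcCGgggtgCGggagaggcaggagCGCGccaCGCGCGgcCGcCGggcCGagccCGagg
C1qc promoter, chr4:136448931-136449230: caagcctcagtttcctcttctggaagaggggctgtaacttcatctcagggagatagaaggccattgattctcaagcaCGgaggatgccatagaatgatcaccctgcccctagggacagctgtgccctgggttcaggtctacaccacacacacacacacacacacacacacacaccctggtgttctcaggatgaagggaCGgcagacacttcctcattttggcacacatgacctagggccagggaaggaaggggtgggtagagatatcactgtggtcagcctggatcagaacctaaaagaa

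Depth differed between libraries: the BC44 totals were 825498 to 1401717 reads and the HC11 totals 96690 to 1755373 reads, with HC11 replicate 2 the shallowest. The replicate 1 libraries of both lines held 40.5% and 44.3% of their reads at the viewpoint end itself, against 0.134 to 0.466% in the other 4, so line comparisons are also given within replicate 1 and within replicates 2 and 3. Counts were scaled to RPM, here reads per 1000000 of those 10 to 400 kb from the viewpoint on both sides. Lists of 3 values are in the order of replicates 1, 2 and 3. The reads behind the stretch numbered 38994, 36776 and 39970 for BC44. For HC11 they numbered 76606, 6027 and 31577.

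The stretch took a larger share of the nearby contacts in the 3 HC11 libraries than in the 3 BC44 libraries. It held 10.3%, 9.10% and 8.30% of the reads 10 to 400 kb away in the BC44 libraries. In the HC11 libraries it held 14.9%, 13.3% and 10.9%. The lines did not overlap, although the lowest HC11 library lay close to the highest BC44 library. The means were 9.25 ± 1.03% and 13.0 ± 1.99% (SD, n = 3 each), a difference of 3.79 percentage points. An exact two-sided permutation test gave p = 0.1, its lower limit for this design, and 0.5 after Benjamini-Hochberg adjustment over 5 line comparisons. Within replicate 1 HC11 was 4.55 points higher, and within replicates 2 and 3 it was higher by 3.40 points. Counting ends with at least 1 read in place of reads, the share was higher in HC11 by only 1.18 points (exact permutation p = 0.3).

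**Figure D1:**
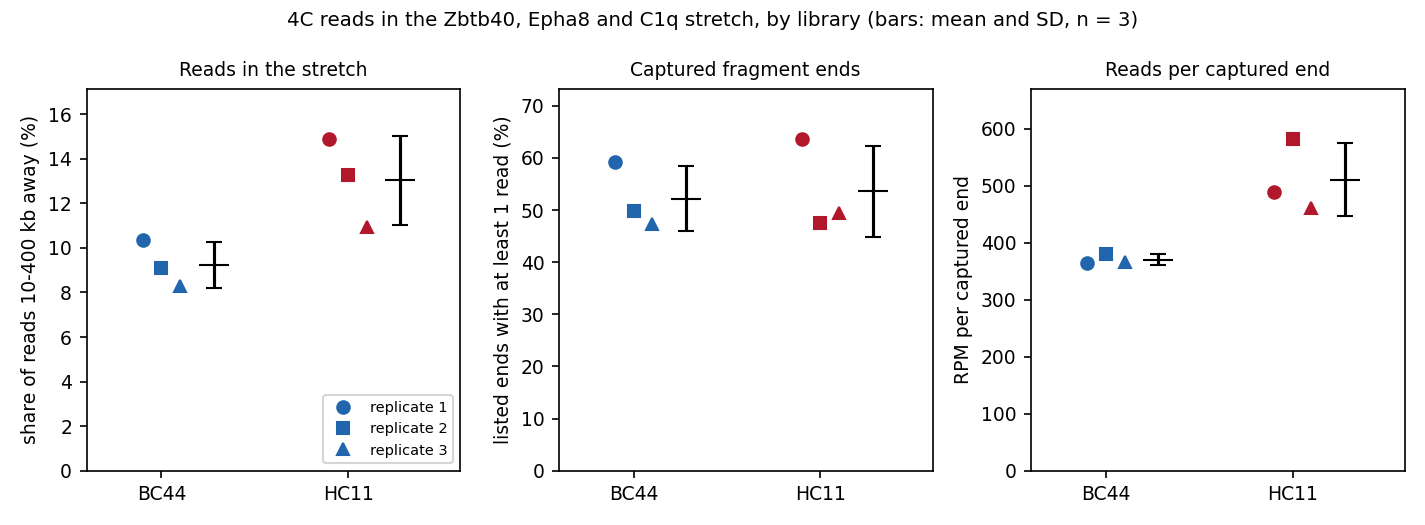
Values by library for the stretch, BC44 in blue and HC11 in red, with the mean and SD of 3 libraries beside the points: the share of reads 10 to 400 kb from the viewpoint that fell in the stretch (%), the share of its 479 listed fragment ends with at least 1 read (%), and the reads per captured end (RPM). The 3 HC11 libraries lie above the 3 BC44 libraries in reads (10.9 to 14.9% against 8.30 to 10.3%) and in reads per captured end (461 to 582 RPM against 364 to 381 RPM) and are mixed with them in captured ends.

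The number of fragment ends captured, that is, with at least 1 read, did not separate the lines. BC44 captured 284, 239 and 227 of the 479 ends and HC11 305, 228 and 237. The shares were 52.2 ± 6.27% and 53.6 ± 8.79% (SD, n = 3 each; exact permutation p = 0.8), and in both lines the replicate 1 library was highest. The reads per captured end did separate them, at 364, 381 and 366 RPM in BC44 and 489, 582 and 461 RPM in HC11. No library of either line overlapped with the other in that measure (1.38-fold, exact permutation p = 0.1). No molecular identifiers are named in the labels. Reads of 1 end may thus be PCR copies of few ligation products, and intervals on these counts cover counting error only.

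Capture varied from library to library at single ends. Of the 479 ends, 53 had reads in all 6 libraries, 69 in none, and 108, the most frequent case, in 4. Reads in all BC44 libraries and no HC11 library were seen at 3 ends, and the reverse at 4 ends. These 2 counts were not made over all ends 10 to 400 kb away, so they have no share to be set against. In reads, 22 ends were higher in every HC11 library than in any BC44 library, or 4.59%, against 2.84% of all 2110 ends 10 to 400 kb away on both sides. The reverse held for 14 ends, or 2.92%, against 2.89%. The 10 largest ends of each library held 18.1 to 27.9% of its reads in the stretch, and the single largest end 2.34 to 4.22%, so no library's signal rested on 1 end. The 10 ends with the highest mean over the libraries, among those captured in at least 5, held 9.06 to 16.7%.

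Zbtb40, whose annotated span holds 178 of the ends, was the gene with the most ends and the most reads of the stretch, and its lines did not overlap. Its reads per listed end were 208, 226 and 202 RPM in BC44 and 385, 299 and 262 RPM in HC11. Every HC11 library was above every BC44 library, by 1.49-fold in the means (exact permutation p = 0.1). HC11 replicate 1 stood highest, and without it the log2 difference was still above 0. Relative to the distance background, a decay fitted to each library's own upstream ends from 10 kb to 1 Mb, the Zbtb40 span was near 1 in both lines, 0.96 ± 0.04 in BC44 and 1.00 ± 0.05 in HC11 (SD, n = 3 each). That background includes the stretch itself, so a line difference shared by the whole region is absorbed by it. A large part of the stretch, such as Zbtb40, is also held near 1 by the fit.

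Single Zbtb40 ends were less even than the gene as a whole. The intronic end at 136583980, the first sequence above, gave 239, 2506 and 930 RPM in BC44 and 4563, 2445 and 0 RPM in HC11. It was the highest end of the stretch on average (1781 RPM) and yet had no read in HC11 replicate 3. The end at 136597234, the second sequence, gave 1266, 2.47 and 72.7 RPM in BC44 and 255, 3524 and 4245 RPM in HC11. Its reads came mainly from HC11 replicates 2 and 3. The end at 136554653, the third sequence, was steadier, with 1945, 1581 and 347 RPM in BC44 and 1727, 1740 and 2012 RPM in HC11. In none of these 3 ends did the lines separate.

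Epha8 had 75 ends in its annotated span. Reads per listed end were 218, 138 and 153 RPM in BC44 and 276, 212 and 204 RPM in HC11, so the lines overlapped, with BC44 replicate 1 above HC11 replicates 2 and 3. The ratio of means was 1.36 (exact permutation p = 0.3). Against the distance background the Epha8 span was at 0.96 ± 0.09 in BC44 and 0.93 ± 0.11 in HC11 (SD, n = 3 each).

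The C1q genes are short, and their 3 spans together held 37 ends. Reads per listed end were 154, 105 and 221 RPM in BC44 and 138, 251 and 265 RPM in HC11. The lines overlapped, as HC11 replicate 1 lay below 2 of the BC44 libraries (1.36-fold, exact permutation p = 0.3). The 3 genes stood at unlike levels over the distance background: 1.38 ± 0.67 for C1qb, 0.43 ± 0.18 for C1qc and 0.78 ± 0.30 for C1qa (SD, n = 6 libraries). The C1qc value rested on 11 ends and that of C1qa on 8, with 37.9% and 35.4% of ends captured on average, against 52.9% for the whole stretch.

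The gaps between the genes, 167 ends in neither a gene nor a promoter, showed the same order of lines without separating them. Reads per listed end were 243, 187 and 142 RPM in BC44 and 283, 290 and 206 RPM in HC11 (1.36-fold, exact permutation p = 0.2). BC44 replicate 1 lay above HC11 replicate 3. Of the 10 highest ends, those in gaps were 136434915, 136517118 and 136482345, where gaps held 167 of all 479 ends. The end at 136517118, between Epha8 and Zbtb40, had 579, 0 and 710 RPM in BC44 and 1710, 3128 and 1513 RPM in HC11. At that end the lines did not overlap, and at the other gap ends named they did.

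Within genes, intronic ends separated the lines in reads per listed end and exonic ends did not. The 235 intronic ends had 197 ± 10.4 RPM per end in BC44 and 302 ± 42.1 in HC11, with no overlap (1.54-fold, exact permutation p = 0.1). The 55 exonic ends had 183 ± 14.3 and 189 ± 44.6 RPM (1.04-fold, exact permutation p = 0.8; SD, n = 3 each). Over the distance background, exonic ends also separated the lines, with BC44 higher, at 0.98 ± 0.15 against 0.72 ± 0.15 in HC11. Intronic ends were at 0.96 ± 0.05 in BC44 and 1.04 ± 0.003 in HC11, again without overlap (SD, n = 3 each). With captured ends in place of reads, the log2 difference of introns was 0.079 (exact permutation p = 0.2). That the fold differed between introns and exons was not tested.

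Promoters, gene bodies and gaps were then compared with each other, each as summed reads over summed distance background. A promoter was taken as the ends within 2 kb of the start of a coding gene (46 ends), a gene body as the other ends inside a coding gene (266 ends). The ratio for promoters was 0.73, 1.14 and 1.25 in BC44 and 0.83, 0.88 and 0.87 in HC11. For gene bodies it was 0.96, 0.93 and 1.01 in BC44 and 1.04, 0.98 and 0.99 in HC11. Gene bodies stayed close to 1 in every library, and promoters fell on both sides of them in BC44. The background was fitted to these same ends among others, and the whole stretch was at 0.98 to 1.03. Gene bodies held 54.7 to 61.9% of the reads of the stretch, so their closeness to 1 is largely set by the fit.

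Promoters did not differ from gene bodies beyond the spread of the libraries. The log2 ratio of promoters over bodies averaged -0.08, above 0 in 2 of 6 libraries, both of them BC44 (exact sign-flip permutation p = 0.53125). By line it was 0.07 ± 0.40 in BC44 and -0.22 ± 0.09 in HC11 (SD, n = 3 each), a difference between lines of -0.29 (exact permutation p = 0.4). Gaps over bodies averaged 0.12, above 0 in 4 of 6 libraries (exact sign-flip permutation p = 0.1875), with a line difference of -0.09 (exact permutation p = 0.8). The sign-flip test asks only if the libraries share a direction, since all libraries have the same ends, and with 6 libraries it cannot go below 0.03125.

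**Figure D2:**
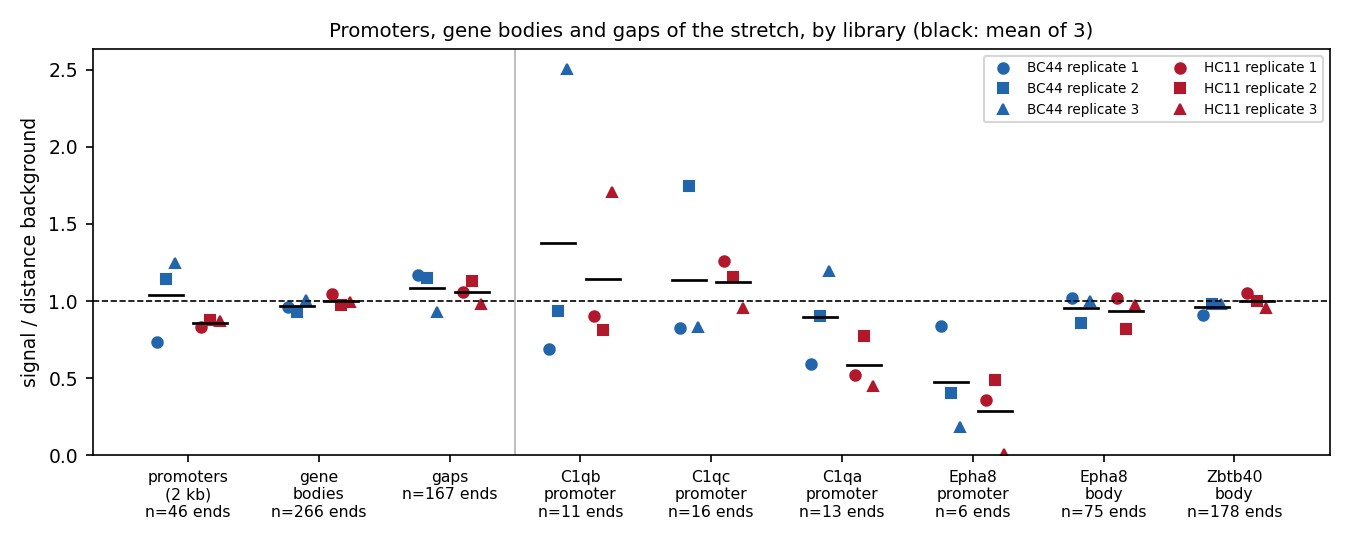
Summed reads over summed distance background (no unit) by library for promoters, gene bodies and gaps of the stretch and, to the right of the grey line, for single promoters and bodies, with BC44 in blue, HC11 in red, marker shapes for replicates and a black line for the mean of 3 libraries. Gene bodies lie near 1 in every library, which is largely set by the fit of the background to these same ends. The C1qb promoter reaches 2.51 in BC44 replicate 3, and the Epha8 promoter lies below 1 in all 6 libraries.

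Single promoters stood at unlike levels. The Epha8 promoter was at 0.84, 0.41 and 0.18 in BC44 and 0.36, 0.49 and 0.01 in HC11, below 1 in every library. Its listed ends ran from 136513437 to 136514720 and so lay outside the CG-rich sequence printed above. The value rested on 6 ends whose median distance to the first CATG was 249.5 bp. Ends of the stretch at such a distance had few reads in general, as described below. The part of that distance in the low value was not tested. The C1qc promoter (16 ends) was at 0.83, 1.75 and 0.83 in BC44 and 1.26, 1.16 and 0.96 in HC11. Much of that came from the end at 136450257, the fourth sequence above, with 1101, 1591 and 1718 RPM in BC44 and 868, 2489 and 1572 RPM in HC11, the most even of the 4. The C1qb promoter (11 ends) ranged from 0.69 to 2.51 and the C1qa promoter (13 ends) from 0.45 to 1.19, with the highest value in BC44 replicate 3 in both. Captured ends gave another order of the promoters. On average 63.9% of the Epha8 promoter's ends were captured, against 51.5% for C1qb, 41.0% for C1qa and 37.5% for C1qc. The share for the whole stretch was 52.9%, so the Epha8 promoter was low in reads and not in capture. That pattern was not particular to this promoter. The 96 ends of the stretch over 200 and up to 400 bp from the first CATG averaged 0.43 over the distance background, with 62.3% captured. The Epha8 promoter averaged 0.38 over the 6 libraries. With the C1q genes left out, the promoter class was the Epha8 promoter alone, and the log2 ratio over bodies became -2.12, below 0 in all 6 libraries (exact sign-flip permutation p = 0.03125). HC11 replicate 3, with 4 reads at that promoter, was at -6.45, and the others ran from -2.42 to -0.17. Without that library the mean was -1.26 (exact sign-flip permutation p = 0.0625, the smallest that 5 libraries allow). The start of Zbtb40 lies at the edge of the stretch and had no listed end within 2 kb on the inner side, so its promoter has no value here.

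The stretch was next cut into windows of 10 kb, and edgeR's quasi-likelihood test was run on all 78 windows 10 to 400 kb away on both sides. After Benjamini-Hochberg adjustment it called 0% of all windows and so 0 of the 17 that lie wholly in the stretch. At an unadjusted p under 0.05 it had 11 of 78 and 1 of 17, and DESeq2's Wald test also called 0 after adjustment, with 9 of 78 and 1 of 17 unadjusted. The window with the smallest adjusted p of the stretch was that from 230 to 240 kb, inside Zbtb40, with a log2 fold change (HC11 over BC44) of 1.10 (SE 0.42, edgeR adjusted p = 0.258). It holds the end at 136597234, and leaving out each library in turn moved its log2 fold change between 0.77 and 1.41.

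Most windows of the stretch leaned the same way. HC11 was higher in 15 of the 17 windows, or 88.2%, against 55.1% of all 78, and the median log2 fold change was 0.33 in the stretch and 0.08 over all windows. Neighbouring windows and a shared total mean that these are not independent observations. The lowest HC11 library exceeded the highest BC44 library in 2 of the 17 windows, or 11.8%, against 6.41% of all windows. These were 270 to 280 kb, in Zbtb40, and 370 to 380 kb, which reaches into C1qa. The reverse held in 0 of 17, against 8.97% of all windows.

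**Figure D3:**
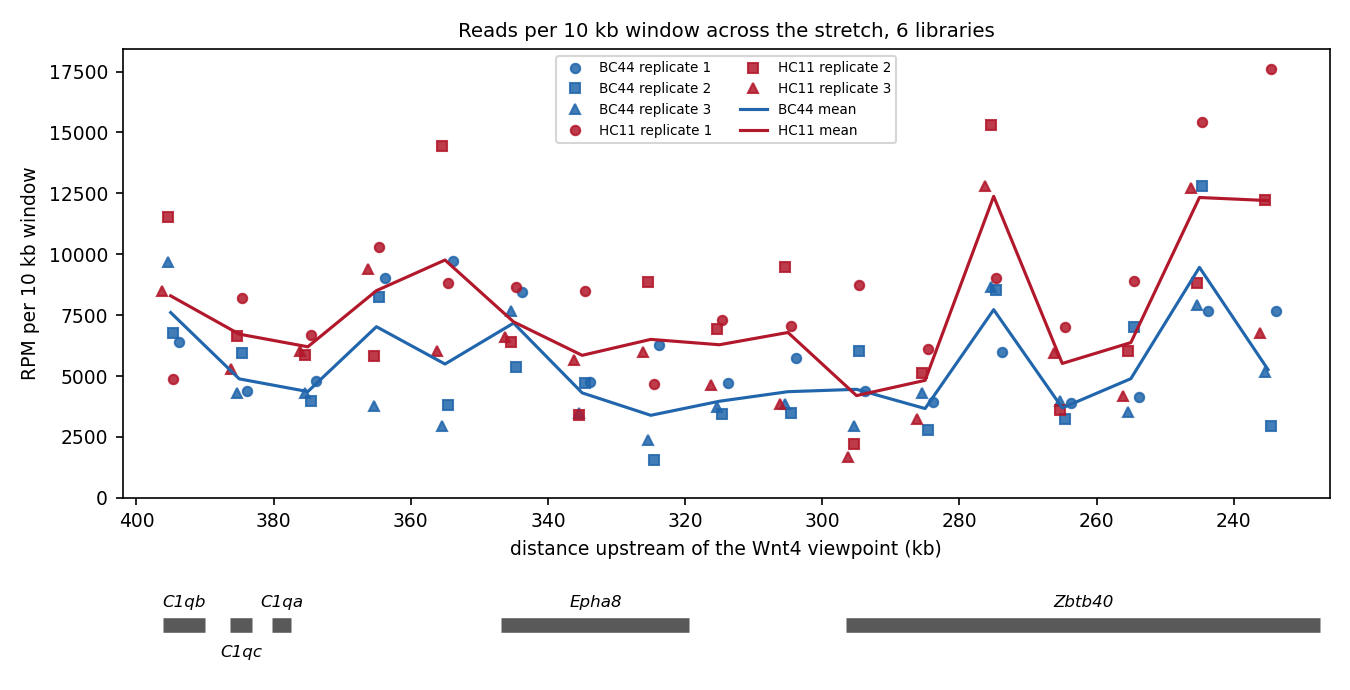
Reads per 10 kb window (RPM) against the distance upstream of the viewpoint (kb), with points for the 6 libraries, lines for the mean of 3 libraries in BC44 (blue) and HC11 (red), and grey bars for the coding genes. The HC11 mean runs above the BC44 mean over most of the stretch, and single libraries of the lines overlap in all but 2 of the 17 windows.

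Cut by annotation, the stretch gave 15 segments (promoters, bodies and gaps in pieces of at most 50 kb), of which 14 had enough reads for a test. edgeR's quasi-likelihood test called 2.22% of the 45 segments tested on both sides, a single segment outside the stretch, and 0 of 14 in it, where 0 also had an unadjusted p under 0.05. DESeq2's Wald test called 3 of the 45 segments and 0 of the 14 in the stretch. In edgeR, HC11 was higher in 10 of the 14, or 71.4%, against 48.9% of all 45. With the replicate number as a block edgeR's single call outside was lost and none arose within. The smallest adjusted p was that of the piece of the Zbtb40 body farther from the viewpoint, whose log2 fold change was 0.47 (SE 0.26, edgeR adjusted p = 0.470). The nearer piece had 0.41 (SE 0.25, edgeR adjusted p = 0.474). Both Zbtb40 pieces and the C1qc body were higher in all HC11 libraries than in any BC44 library, 3 of 15 segments, against 15.2% of all segments. The C1qc body had only 3 ends, with 32 reads in HC11 replicate 2. The gap between C1qc and C1qa, with only 2 ends, was lower in all HC11 libraries, 1 of 15 segments or 6.67%, against 10.9%.

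To follow the profile within the stretch at finer grain, the running mean over 21 neighbouring ends was set against the distance background. The mean over 6 libraries ranged from 0.52 to 1.67 along the 479 positions. It was above 1 in all 6 libraries at 25 positions and below 1 in all 6 at 40. Neighbouring positions share ends, so these counts are descriptions.

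The highest point was an intron-rich stretch of Zbtb40 at 136552472 (window chr4:136546714-136555427). The ratio there was 1.20, 1.67 and 2.18 in BC44 and 1.44, 1.79 and 1.72 in HC11, above 1 in every library, and 1.67 ± 0.33 on average (SD, n = 6). None of its 21 ends lacked reads in all libraries, 12 of them had reads in 5 or 6, and 19 of them were intronic. The next were a window over C1qb, centred at 136439331, with 1.54 ± 0.74 and HC11 replicate 1 at 0.66, and one in the gap between C1qa and Epha8, centred at 136464947, with 1.45 ± 0.43 and HC11 replicate 2 at 0.87 (SD, n = 6 each). With 31 ends in the running mean the Zbtb40 point was at 1.29 and above 1 in 5 of 6 libraries, and with 11 ends at 1.41 and above 1 in 3 of 6.

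The lowest point also lay in Zbtb40, at 136571675 (window chr4:136568311-136575055). It was at 0.50, 0.71 and 0.56 in BC44 and 0.60, 0.35 and 0.43 in HC11, below 1 in every library. Of its 21 ends, 13 were exonic and 8 had no read in any library, and their median distance to the first CATG was 192 bp, against 118 bp at the highest point. With the background set per band of that distance the ratio was 0.70, and the part of the distance in the low value was not tested otherwise. With 31 ends in the running mean the ratio was 0.64, and with 11 ends it was 0.74, ran from 0.36 to 1.29 and was above 1 in 2 of 6 libraries. The other low points lay over C1qb and C1qc, at 136445730 (0.56 ± 0.18), and at the start of Zbtb40, at 136602535 (0.61 ± 0.23; SD, n = 6 each). The window at the Zbtb40 start ran to 136607925, beyond the stretch, and only 11 of its 21 ends lay in the stretch. Zbtb40 thus held both the highest and the lowest of these values.

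**Figure D4:**
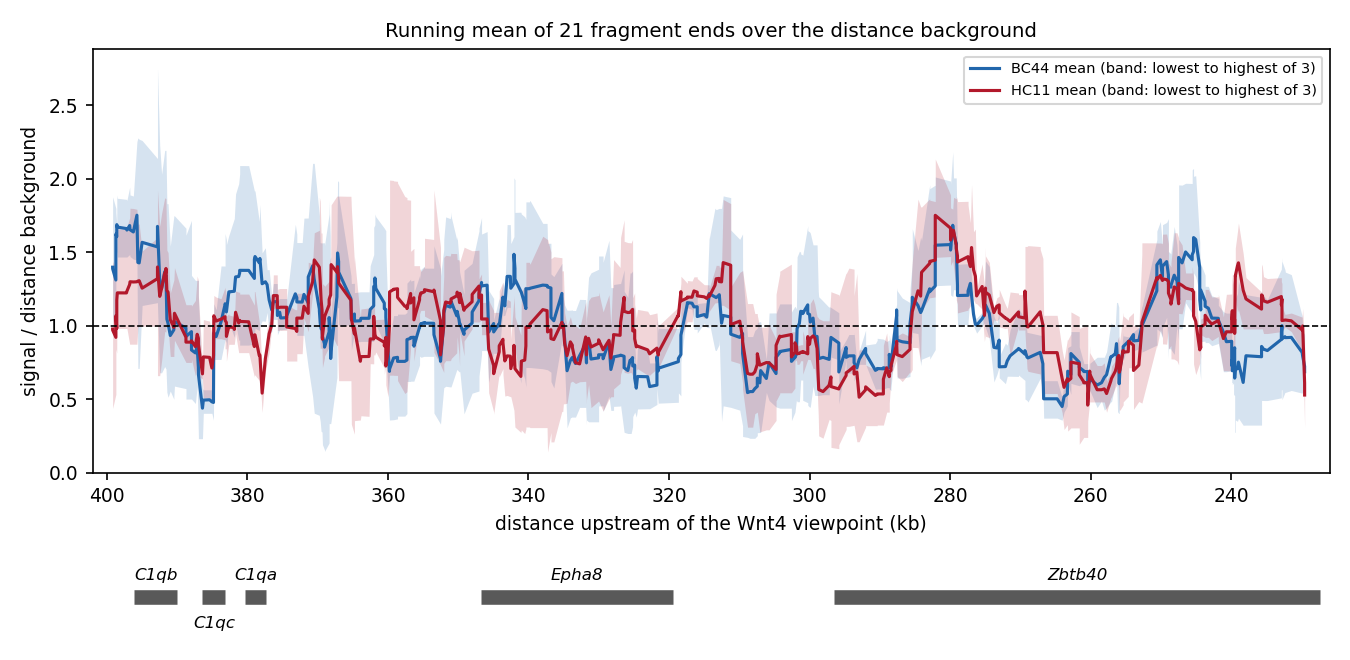
Running mean of 21 fragment ends over the distance background (no unit) against the distance upstream of the viewpoint (kb), with lines for the mean of 3 libraries, bands from the lowest to the highest library, BC44 in blue and HC11 in red, a dashed line at 1, and grey bars for the coding genes. Both lines rise within Zbtb40 to a mean of 1.67 over the 6 libraries near 280 kb and fall to 0.52 near 260 kb.

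The profiles of the 2 lines were no more alike within a line than between lines. Over the 17 windows, the Pearson correlation of the signal averaged 0.34 within lines (6 pairs of libraries) and 0.41 between lines (9 pairs). This is across windows that share distance and listed ends, and is a description only.

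Reads per listed end were higher in the stretch than at the same distances on the downstream side, the closest match in distance. In BC44 the stretch had 216, 190 and 173 RPM per end, and the 463 downstream ends had 157, 121 and 102. In HC11 the stretch had 311, 277 and 228 RPM per end, and the downstream ends 145, 144 and 183. The stretch was higher in 6 of 6 libraries, by 0.71 on the log2 scale or 1.63-fold (exact sign-flip permutation p = 0.03125, the smallest possible). The difference was 0.63 ± 0.15 in BC44 and 0.79 ± 0.41 in HC11 (SD, n = 3 each) and did not differ between lines beyond their spread (0.16, exact permutation p = 0.6). Leaving out any 1 library or replicate 1 of both lines kept the direction, but then too few libraries remain for p under 0.05. With captured ends in place of reads the log2 difference over the 6 libraries was smaller, at 0.37 (exact sign-flip permutation p = 0.03125).

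At the Zbtb40 start, reads per end averaged over the libraries lay at like levels on both sides of the edge, while single libraries went both ways. In BC44 they were 457, 125 and 184 RPM inside and 269, 291 and 262 outside. In HC11 they were 542, 408 and 279 RPM inside and 325, 412 and 285 outside. The 10 kb inside it had 333 ± 163 RPM per end and the 10 kb of intergenic DNA beyond it 308 ± 55.7 RPM (SD, n = 6 libraries). At the far edge, past C1qb, the 10 kb inside had 265 ± 81.2 RPM and the 10 kb outside 165 ± 82.0. The 333 intergenic ends between Zbtb40 and 100 kb from the viewpoint held 23.1, 25.3 and 26.7% of the reads in BC44 and 24.4, 24.2 and 20.6% in HC11, where the lines overlapped.

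The values of single ends went with the position of the cutting sites. Of the 872 possible DpnII ends of the stretch, 479 (54.9%) were listed, and all of these had a CATG in their fragment, against 28.8% of the ends not listed. Reads per listed end went with the distance to the first CATG: 130 RPM up to 30 bp, 367 from there to 60 bp, 318 up to 100 bp, 236 up to 200 bp, 100.3 up to 400 bp and 20.4 beyond 400 bp (means of 6 libraries). The share of ends captured followed another course and was highest, at 62.6% and 62.3%, from 100 to 200 and from 200 to 400 bp. Ends of fragments of 43 to 259 bp were captured in 36.7% of cases and those of 786 to 2857 bp in 60.2%. Over the 479 ends, the Spearman correlation with the number of libraries that captured an end was 0.31 for fragment length, 0.08 for the distance to CATG, 0.02 for G+C content and -0.05 for the distance to the viewpoint, as a description. All libraries share these sites, so they bear on comparisons between ends and classes.

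**Figure D5:**
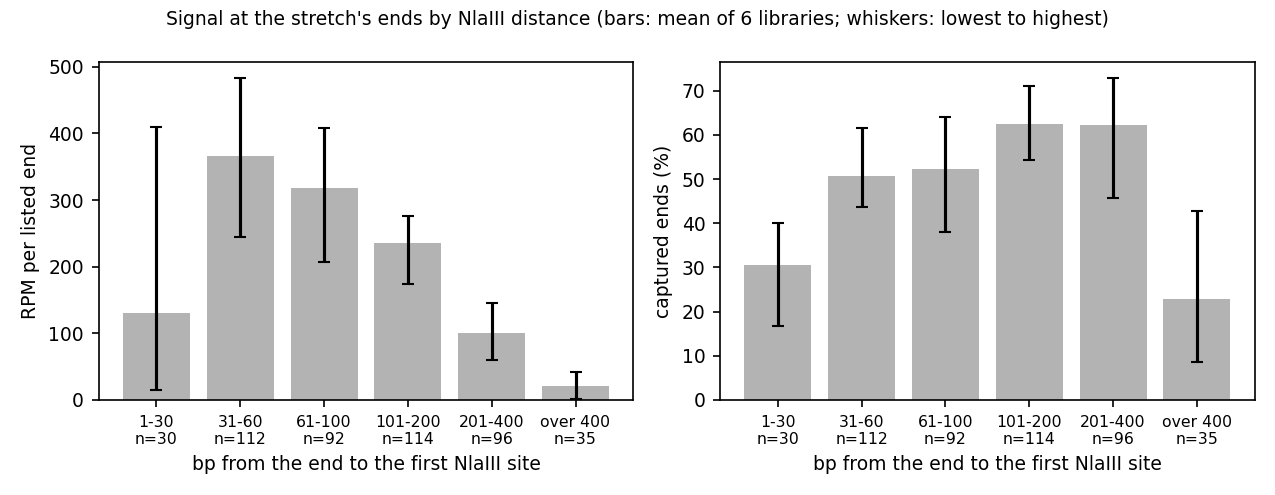
Reads per listed end (RPM, left) and captured ends (%, right) of the 479 ends by the distance in bp from the end to the first NlaIII site, as bars for the mean of 6 libraries with whiskers from the lowest to the highest library. Reads are highest from 30 to 60 bp (367 RPM) and lowest beyond 400 bp (20.4 RPM), and capture is highest from 100 to 400 bp.

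The series concerned GRHL factors and the progesterone receptor, so the stretch was searched on both strands for their binding words, as text matches that do not show binding. The GRHL word AACCNGTT had 5 matches, or 2.90 per 100 kb, against 5.76 per 100 kb from 10 kb to 1 Mb upstream. The progesterone response element had 4, or 2.32 against 2.12 per 100 kb. The words are short enough for matches anywhere, and 1.67% and 0.636% of all 300 bp windows upstream held one. The longer CTCF word had 0 matches in the stretch and in 0% of these windows. A word found nowhere in the upstream zone cannot tell if the stretch holds CTCF sites. None of the 3 words occurred in the fragments of the 10 highest ends or in the 300 bp promoters of the 5 genes. Of all fragments with a listed end 10 kb to 1 Mb upstream, 2.82% held the GRHL word and 1.07% the progesterone response element. At such rates, finding none in so few fragments says little.

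The GRHL matches shown lie in the fragments with the most reads among those with a GRHL match, and the progesterone response element match lies in the highest running window. Each is printed with the match in capitals, on the plus strand.

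GRHL match in an Epha8 intron, chr4:136503924-136503953: agctggttgccAACAGGTTattcttccatc
GRHL match in the first Zbtb40 fragment, chr4:136604085-136604114: agcggccggacAACCCGTTaaaaagaaaac
Progesterone response element match in a Zbtb40 intron, chr4:136547905-136547933: cttgcaaaGCACAGTTTGTTCtccttgca

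The Epha8 match lay in a fragment whose 2 listed ends averaged 610 RPM, with an end captured in 5 of 6 libraries, against an average of 193 RPM per end over the stretch in BC44 and 272 in HC11. The Zbtb40 match near the gene start lay in a fragment with 1 listed end, at 136602532 in an intron of the gene, with 450 RPM and reads in 5 libraries. The other GRHL matches with a value were lower, at 159 RPM between C1qa and Epha8 and 109 RPM in a Zbtb40 intron, captured in at most 3 and 2 libraries. The remaining GRHL match, also in Zbtb40, had no listed end. Of the other progesterone response element matches, all between genes, one fragment had 0 RPM, one 118 RPM and one no listed end. The progesterone response element match lay inside that window of Zbtb40, but its own fragment of 136 bp had no listed end and so no value.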

How the data were processed

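4C-seq libraries of a Wnt4 promoter viewpoint were analysed for 3 BC44 and 3 HC11 samples, grouped by their titles. The deposited values were raw read counts per DpnII fragment end of chromosome 4, per the labels mapped to mm9 with the de Wit laboratory's 4C mapping pipeline at default settings from the first read of each pair. The scaling to RPM, the classes and the windows were computed here. Depth was 96690 to 1755373 reads per library, and the 95% Wilson interval of the share of reads in the stretch is narrow beside the spread between libraries, covering counting error only. PCR duplicates were not removed. Genes came from GENCODE M1 and sequences from the same mm9 genome. The distance background was an isotonic decay per library.

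Windows and segments with at least 10 reads in at least 3 libraries were tested with edgeR 4.0.16 (quasi-likelihood, TMM, adjusted p under 0.05), adjusted over all of them; single values with exact permutation tests. The test code was run on simulated data first. DESeq2 1.42.0, other scalings, filters, widths and left-out libraries were alternatives. Same-numbered libraries deviated together over the 78 windows (r = 0.14, 0.31 and 0.36), so the numbers were treated as pairs in the blocked fits. Over the windows of the stretch alone r was -0.11, -0.53 and 0.21, so there the pairs did not all deviate together. The genes named were all coding genes of the stretch, with every window and segment and the 10 highest ends; the stretch, lists and tests were chosen with earlier results of these data known.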

Additional observations from a re-analysis of the deposited data

How the results depend on the processing

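The 8 single values and the 2 counts of calls were recomputed under the alternatives that bear on each. The read share of the stretch stayed higher in HC11 in every setting run, by 2.85 to 4.84 points without single libraries. With all reads over 2 kb from the viewpoint as the total it was higher by 1.95 points (exact permutation p = 0.1). With captured ends in place of reads that share was higher by only 1.18 points (exact permutation p = 0.3). The difference in the share of listed ends captured ran from -3.65 to 4.94 points without single libraries and was -0.10 in replicates 2 and 3. Promoters over bodies turned to 0.066 in replicates 2 and 3, 0.075 with a straight-line background, 0.092 with ends 30 to 300 bp from NlaIII and 0.036 with the background set per band of NlaIII distance, and became -2.12 without the C1q genes (-1.26 also without HC11 replicate 3, chosen after seeing the data). Gaps over bodies turned to -0.13 with no distance background. The stretch over the downstream side was 0.63 to 0.79 without single libraries (exact permutation p = 0.0625, the smallest possible) and 0.67 in replicates 2 and 3 (exact p = 0.125). With captured ends in place of reads it fell to 0.37 (exact sign-flip permutation p = 0.03125). Of the line differences, promoters over bodies turned to 0.57 with promoters of 1 kb, gaps over bodies to 0.0053 in replicates 2 and 3, and stretch over downstream to -0.081 in replicates 2 and 3 and -0.034 with captured ends. Calls among all 10 kb windows numbered 2 with the replicate block, 4 with 20 kb windows and 0 to 1 without single libraries. Calls among all segments numbered 0 with the replicate block, without the top end, with captured ends and with promoters of 1 kb, 2 in replicates 2 and 3, with DESeq2 size factors and with no filter, 3 with promoters of 5 kb and with DESeq2's Wald test, and 0 to 2 without single libraries. The replicate block changed no other call. The cause of these changes was not tested.

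The log2 fold changes below turned sign in a setting, and none was called. Without single libraries, exons ran from -0.14 to 0.20, the promoter of C1qa from -0.42 to 0.011, that of C1qb from -0.35 to 0.76 and that of Epha8 from -0.95 to 0.43. The windows ran from -0.13 to 0.29 (220 to 230 kb), -0.043 to 0.60 (250 to 260 kb), -1.31 to 0.19 (290 to 300 kb), -0.022 to 0.59 (330 to 340 kb), -0.12 to 0.38 (360 to 370 kb) and -0.32 to 0.29 (390 to 400 kb). In replicates 2 and 3, exons were at -0.16, the promoters of C1qb and Epha8 at -0.11 and 0.15, and the windows at 240 to 250 and 250 to 260 kb at -0.083 and -0.19. Without the top end, the promoters of C1qb and Epha8 were at -0.047 and 0.26, and the windows at 220 to 230, 250 to 260 and 340 to 350 kb at -0.10, -0.031 and 0.0076. With captured ends, the windows at 220 to 230, 370 to 380 and 390 to 400 kb were at -0.068, -0.046 and -0.11. With the replicate block the window at 390 to 400 kb was at -0.065, and with DESeq2 size factors and DESeq2's Wald test the C1qb promoter was at -0.020 in both. Depth limits HC11 replicate 2 most, with 6027 reads in the stretch.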
